A study of Mus musculus with 20 samples.

Results

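Marker genes of myeloid cells were followed in mouse kidney cortex after 3 kinds of acute injury. The genes were chosen by symbol, with earlier results of these data known. They were S100a8, S100a9, Chil3 and Adam8 for myeloid cells recruited from blood, and Cd68, Lyz2, Csf1r and Adgre1 for macrophages. Of these 8 genes, 7 had a row among the 6025 genes of the deposited table, 4 of 4 recruited markers and 3 of 4 macrophage markers. Adgre1 was not analysed here. The 20 libraries came from wild-type (WT) C57BL/6 mice aged 8 weeks, 1 mouse per library, in 4 groups. Control kidneys (n = 8) came from mice that the series calls mock and vehicle, while each control label reads mock, and mock and vehicle animals cannot be told apart. The injured groups were ischemia-reperfusion injury (IRI, n = 4), in which blood flow to the kidney is stopped and restored, sampled at 24 h; rhabdomyolysis (n = 4), in which damaged muscle releases its contents into the blood, sampled at 24 h; and cisplatin (n = 4), a DNA-damaging drug toxic to the tubule, sampled at 72 h. The labels used here give neither the dose of cisplatin nor the way in which rhabdomyolysis was induced, and cisplatin is the only injury at 72 h, so agent and time cannot be told apart for it.

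The healthy kidney holds resident macrophages that lie between the tubules, and after injury neutrophils and monocytes enter from the blood. S100a8 and S100a9 encode the subunits of calprotectin, a calcium-binding complex that neutrophils and monocytes carry in large amounts. Chil3 encodes Ym1, a chitinase-like lectin of mouse myeloid cells, and Adam8 a membrane metalloprotease of leukocytes. Cd68 encodes a lysosomal glycoprotein of phagocytes, Lyz2 the lysozyme of neutrophils, monocytes and macrophages, and Csf1r the receptor of macrophages for the growth factors CSF1 and IL-34. None of these transcripts is fully restricted to leukocytes, and injured epithelium can express some of them. In RNA from whole tissue, more cells of a type and more RNA per cell cannot be told apart.

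Values are CPM, reads of a gene per mega (M) reads of the library's effective size, which ran from 6.07 to 10.6 M reads. The table held 3.48 to 5.40 M reads per library. Its genes made up 55.3 to 70.6% of the effective size in the controls and 42.1 to 48.3% in the injured libraries, and the part of this difference in the results was not tested. The table is a selection: in 6025 of 6025 genes the mean of at least 1 injury differed at least 1.5-fold from the mean of the 8 controls (smallest, 1.53-fold), so every member had to differ somewhere. The 4 recruited markers, at or below a mean of 0.507 CPM in the controls, passed the minimum mean of 1 CPM only through the injured libraries. Controls 1 to 4 share a range of library identifiers with the IRI mice, and controls 5 to 8 share the other range with the rhabdomyolysis and cisplatin mice, so each injury was set against the 4 controls of its own range. Rhabdomyolysis and cisplatin therefore share their controls. Between the controls of the ranges, 0 of 7 members passed an adjusted p of 0.05 by limma, by edgeR or by DESeq2, and 1 member, Cd68, had an unadjusted limma p under 0.05. Defining transcripts of the labelled tissue were abundant: 10 of 10 proximal tubule markers had a row, and their summed level was 27893 to 50684 CPM in the controls.

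The sequence before the transcription start is shown for S100a8 and S100a9, the calprotectin pair, and for Cd68, which differed most between injuries. S100a8 (ENSMUSG00000056054.9, chr3:90668978-90670035, plus strand) and S100a9 (ENSMUSG00000056071.12, chr3:90692632-90695721, minus strand) are neighbours on chromosome 3, and Chil3 lies on the same chromosome (chr3:106147554-106167564, minus strand). Adam8 lies at chr7:139978932-139992562 (minus strand), Cd68 at chr11:69664213-69666153 (minus strand) and Lyz2 at chr10:117277331-117282321 (minus strand), all in build GRCm38. The 250 bases before the RefSeq start (GRCm38.p6) are given 5′ to 3′ in the gene's direction, for S100a8 at chr3:90668821-90669070, for S100a9 at chr3:90695722-90695971 and for Cd68 at chr11:69666171-69666420. Capitals mark the letters of a short motif of PU.1 (GAGGAA, or TTCCTC on the other strand) and of C/EBP (TTNCNNAA, or TTNNGNAA on the other strand), factors known from myeloid differentiation.
S100a8: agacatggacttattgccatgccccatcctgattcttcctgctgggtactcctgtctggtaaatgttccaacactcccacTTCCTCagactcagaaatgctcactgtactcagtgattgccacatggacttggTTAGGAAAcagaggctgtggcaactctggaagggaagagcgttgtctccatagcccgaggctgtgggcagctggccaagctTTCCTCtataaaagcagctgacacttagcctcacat
S100a9: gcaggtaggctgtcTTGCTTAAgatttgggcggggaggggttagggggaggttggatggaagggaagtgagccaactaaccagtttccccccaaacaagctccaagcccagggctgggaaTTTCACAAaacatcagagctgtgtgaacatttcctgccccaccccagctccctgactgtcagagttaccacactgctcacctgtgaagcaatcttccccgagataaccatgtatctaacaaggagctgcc
Cd68: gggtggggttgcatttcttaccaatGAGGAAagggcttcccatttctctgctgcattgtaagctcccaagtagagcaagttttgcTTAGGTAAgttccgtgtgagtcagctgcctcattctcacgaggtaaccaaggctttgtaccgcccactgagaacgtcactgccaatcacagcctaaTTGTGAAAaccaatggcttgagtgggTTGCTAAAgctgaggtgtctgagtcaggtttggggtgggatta
The S100a8 window held 2 matches to the PU.1 letters and 1 to the C/EBP letters. The S100a9 window held 0 and 2, and the Cd68 window 1 and 3. Of 6 members whose window was searched, 2 held the PU.1 letters and 6 the C/EBP letters. Among 32851 mouse promoter windows of the same length, 23.3% held the PU.1 letters and 36.8% the C/EBP letters. A match describes letters in this window and is not evidence of binding.

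S100a8 and S100a9, the calprotectin subunits, were close to the detection limit in control kidneys and higher in every injured mouse. S100a8 ran from 0.135 to 0.481 CPM in the 8 controls (median 0.305), which is 1 to 3 reads per library. It was 6.16, 6.66, 3.44 and 2.52 CPM in IRI mice 1 to 4 and 11.9, 5.22, 5.13 and 6.02 CPM in rhabdomyolysis mice 1 to 4. In cisplatin mice 1 to 4 it was 3.39, 5.45, 7.48 and 3.68 CPM. Thus all 12 injured mice lay above all 8 controls, the injured groups overlapped each other, and rhabdomyolysis mouse 1 stood above the rest. Over pooled reads, S100a8 was 22.3-fold higher in IRI than in the matched controls (95% exact interval for counting error 10.0 to 61.7), 17.5-fold in rhabdomyolysis (9.66 to 35.5) and 12.2-fold in cisplatin (6.68 to 24.9). The place of IRI in this order rests on few control reads, 6 against the 11 shared by the other injuries. The mean level was 4.70 CPM in IRI, 7.07 in rhabdomyolysis and 5 in cisplatin.

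S100a9 ran from 0.138 to 1.15 CPM in the controls (median 0.354, 1 to 7 reads). It was 8.92, 9.99, 6.20 and 4.92 CPM in IRI mice 1 to 4, and 18.8, 9.06, 8.46 and 9.42 CPM in rhabdomyolysis mice 1 to 4. In cisplatin mice 1 to 4 it was 3.27, 7.37, 11.6 and 4.45 CPM. Again no injured mouse overlapped the controls, and the mice with the highest S100a8 in IRI, rhabdomyolysis and cisplatin (mice 2, 1 and 3) also had the highest S100a9. The pooled ratio was 19.6 in IRI (10.7 to 39.7), 18.4 in rhabdomyolysis (11.4 to 31.8) and 10.6 in cisplatin (6.47 to 18.4). Here too the place of IRI rests on few control reads, 11 against the 17 shared by the other injuries. Reads of S100a9 per read of S100a8, a ratio within each library, were 1.45 to 1.95 in IRI, 1.57 to 1.74 in rhabdomyolysis and 0.966 to 1.55 in cisplatin. In the control libraries, with at most 7 reads of either gene, it ran from 0.333 to 4, so the control proportion is poorly defined. The ranges of IRI and rhabdomyolysis overlapped, and the cisplatin mice reached below both. The lowest ratio, in cisplatin mouse 1, came from 28 reads of S100a9 against 29 of S100a8.

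Chil3, the gene of the lectin Ym1, was at 0 reads in control mice 3, 4 and 6, where 3 reads would have been 0.387, 0.431 and 0.481 CPM. The controls reached 0.329 CPM (median 0.201). It was 5.11, 5.99, 7.69 and 9.38 CPM in IRI mice 1 to 4, 13.7, 8.18, 16.2 and 6.24 CPM in rhabdomyolysis mice 1 to 4, and 4.55, 21.9, 18.5 and 4.16 CPM in cisplatin mice 1 to 4. All injured mice lay above the controls, and cisplatin mice fell into high values (mice 2 and 3) and low values (mice 1 and 4). The pooled ratio was 69.7 in IRI (23.6 to 340, from 233 reads against 3), 50.9 in rhabdomyolysis (23.2 to 140) and 55.5 in cisplatin (25.3 to 152). Reads of Chil3 and its near copies in the mouse genome can be hard to assign, so its level carries that uncertainty.

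Adam8, the leukocyte metalloprotease, was highest in cisplatin, without overlap with the other groups. The controls ran from 0 to 0.414 CPM (median 0.223, at most 3 reads, with 0 reads in control mouse 4). It was 11.01, 5.06, 7.35 and 5.26 CPM in IRI mice 1 to 4, 22.9, 20.0, 22.1 and 8.86 CPM in rhabdomyolysis mice 1 to 4, and 41.6, 40.2, 37.9 and 31.3 CPM in cisplatin mice 1 to 4. All 4 cisplatin mice lay above all other mice, and rhabdomyolysis mouse 4 fell within the IRI range. The pooled ratio against matched controls was 34.7 in IRI (15.7 to 95.5), 63.8 in rhabdomyolysis (32.2 to 148) and 127 in cisplatin (64.1 to 294).

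**Figure D1:**
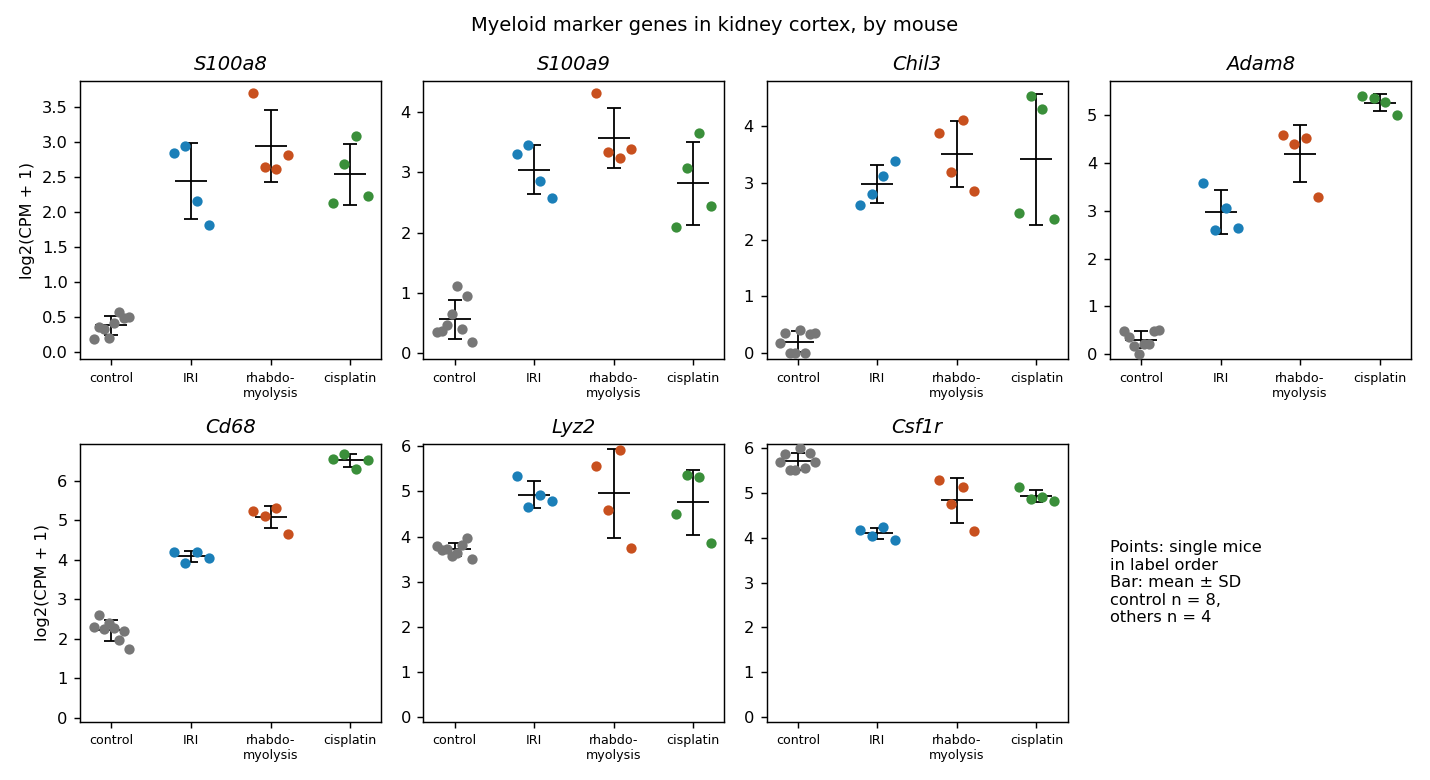
Level of each member on the log2(CPM + 1) scale in every mouse, by group; each point is 1 mouse (8 controls, 4 per injury, in label order) and the bars are mean ± SD. The 4 recruited markers, Cd68 and Lyz2 are higher in injury, with 1 rhabdomyolysis and 1 cisplatin mouse inside the control range for Lyz2, and Csf1r is lower in all 12 injured mice.

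Cd68, the lysosomal glycoprotein of phagocytes, rose in graded steps. It ran from 2.35 to 5.07 CPM in the controls (median 3.77). It was 17.2, 14.0, 17.3 and 15.6 CPM in IRI mice 1 to 4, 36.9, 33.6, 38.4 and 24.3 CPM in rhabdomyolysis mice 1 to 4, and 92.8, 101.9, 77.9 and 90.2 CPM in cisplatin mice 1 to 4. None of the 4 groups overlapped, in the order control, IRI, rhabdomyolysis, cisplatin. In that order the means were 3.71 ± 0.828 CPM (SD, n = 8), 16.0 ± 1.57, 33.3 ± 6.32 and 90.7 ± 9.93 CPM (SD, n = 4 each). Against matched controls the ratio of means was 3.76, 10.5 and 28.7.

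Lyz2, the lysozyme gene of neutrophils, monocytes and macrophages, rose less and varied more between mice. It ran from 10.4 to 14.7 CPM in the controls (median 12.1). It was 39.7, 24.4, 29.4 and 26.4 CPM in IRI mice 1 to 4, 46.4, 23.1, 59.3 and 12.5 CPM in rhabdomyolysis mice 1 to 4, and 21.5, 40.3, 38.7 and 13.5 CPM in cisplatin mice 1 to 4. All IRI mice lay above the controls, while rhabdomyolysis mouse 4 and cisplatin mouse 4 lay within the control range. The ratio of means against matched controls was 2.50 in IRI, 2.84 in rhabdomyolysis and 2.29 in cisplatin. Its near copy Lyz1 was low in all 20 libraries, from 0.141 to 2.95 CPM, and how the counting divided reads between the copies was not tested.

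Csf1r, the receptor on which macrophages depend, was the member that fell. It ran from 44.2 to 62.6 CPM in the controls (median 50.2). It was 17.0, 15.3, 17.8 and 14.4 CPM in IRI mice 1 to 4, 38.2, 25.7, 34.0 and 16.8 CPM in rhabdomyolysis mice 1 to 4, and 34.0, 28.0, 29.0 and 27.2 CPM in cisplatin mice 1 to 4. All 12 injured mice lay below all 8 controls, and rhabdomyolysis mouse 4 lay within the IRI range. The matched controls were 3.04-fold higher than IRI, 1.89-fold higher than rhabdomyolysis and 1.84-fold higher than cisplatin by the ratio of means.

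The opposite courses of the macrophage markers showed in the Cd68 reads per Csf1r read within each library. This ratio was 0.047 to 0.098 in the controls, 0.913 to 1.08 in IRI, 0.965 to 1.45 in rhabdomyolysis and 2.68 to 3.65 in cisplatin. The injured and control ranges did not overlap, cisplatin lay above the other injuries, and IRI and rhabdomyolysis overlapped. Lyz2 reads per Csf1r read were 0.184 to 0.287 in the controls, 1.59 to 2.33 in IRI, 0.743 to 1.74 in rhabdomyolysis and 0.495 to 1.44 in cisplatin. A ratio within a library does not depend on the scaling of that library, and it shows unequal change of the genes.

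**Figure D2:**
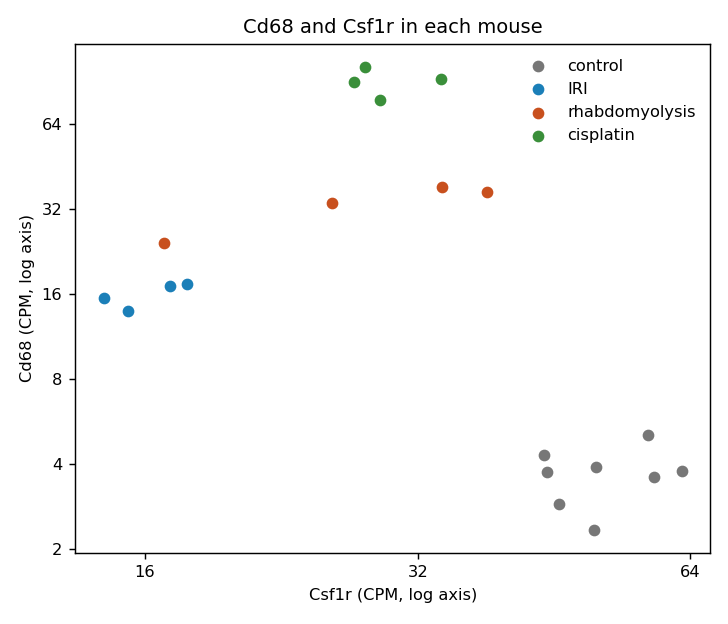
Cd68 against Csf1r (both CPM, on log axes), 1 point per mouse, coloured by group. Controls sit at low Cd68 and high Csf1r, the 4 cisplatin mice at 77.9 to 101.9 CPM of Cd68, and the 4 IRI mice, with rhabdomyolysis mouse 4, at the lowest Csf1r.

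Levels of different genes can be set side by side only per length, here as CPM per kilobase of annotated exon (GENCODE, GRCm38). In the controls Csf1r (10.6) and Lyz2 (9.28) had the highest levels per kilobase, followed by Cd68 (2.95), S100a9 (0.972), S100a8 (0.629), Chil3 (0.105) and Adam8 (0.078). In IRI Lyz2 was highest (22.8), then S100a9 (14.4), Cd68 (12.7) and S100a8 (9.66). In rhabdomyolysis Lyz2 (26.9), Cd68 (26.5) and S100a9 (21.9) lay close together. In cisplatin Cd68 (72.1) stood above Lyz2 (21.6), S100a9 (12.8) and Adam8 (12.1). Csf1r thus moved from the highest level per kilobase in the controls to the lowest but 1 in IRI (3.30) and to the lowest in rhabdomyolysis (5.87) and cisplatin (6.05).

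Each injury was tested against its matched controls with limma on log2(CPM + 1), a scale that understates the change of genes with few reads. In IRI 7 of 7 members passed an adjusted p of 0.05, 6 higher and 1 lower, in a table where 80.7% of the 5672 genes tested passed (40.6% higher, 40.1% lower). In rhabdomyolysis and in cisplatin the same 6 were higher and Csf1r lower, where 95.3% of genes (48.8% higher, 46.5% lower) and 91.8% (47.8% higher, 44% lower) passed. Nothing is read from the member counts, since passing genes were this common in a table chosen for change and the recruited markers had to be higher to be tested at all. The median log2 difference over all genes tested was 0.08, 0.31 and 0.30 in IRI, rhabdomyolysis and cisplatin. All 4 IRI mice were above all 8 controls for 6 members and below for 1, where 31% of genes lay above and 33.8% below. In rhabdomyolysis 5 members lay above, 1 below and 1 overlapped (42.3% and 42.7% of genes), and the same held in cisplatin (40.7% and 38%).

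For the recruited markers the differences from controls are a description, with no p, because these genes entered the test only through the injured libraries. In the order IRI, rhabdomyolysis, cisplatin, the limma log2 difference of S100a8 was 2.17, 2.45 and 2.04 (SE 0.26). That of S100a9 was 2.59, 2.90 and 2.15 (SE 0.30), that of Chil3 2.84, 3.23 and 3.14 (SE 0.37) and that of Adam8 2.72, 3.85 and 4.91 (SE 0.24). The estimates of Adam8 spread over more than 2 log2 units across injuries, and those of the other recruited markers over less than 1.

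Among the macrophage markers, Cd68 differed by 1.70 in IRI (SE 0.15, limma adjusted p = 2.27e-09), 3.04 in rhabdomyolysis (5.41e-14) and 4.47 in cisplatin (1.67e-16). Lyz2 differed by 1.23 (SE 0.34, limma adjusted p = 0.00268), 1.22 (0.00208) and 1.02 (0.00846). Csf1r differed by -1.54 (SE 0.18, limma adjusted p = 1.05e-07), -0.95 (3.20e-05) and -0.85 (0.000137). Cd68 thus rose most in cisplatin, the estimates of Lyz2 were alike in size with wide errors, and Csf1r fell in all 3 injuries.

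**Figure D3:**
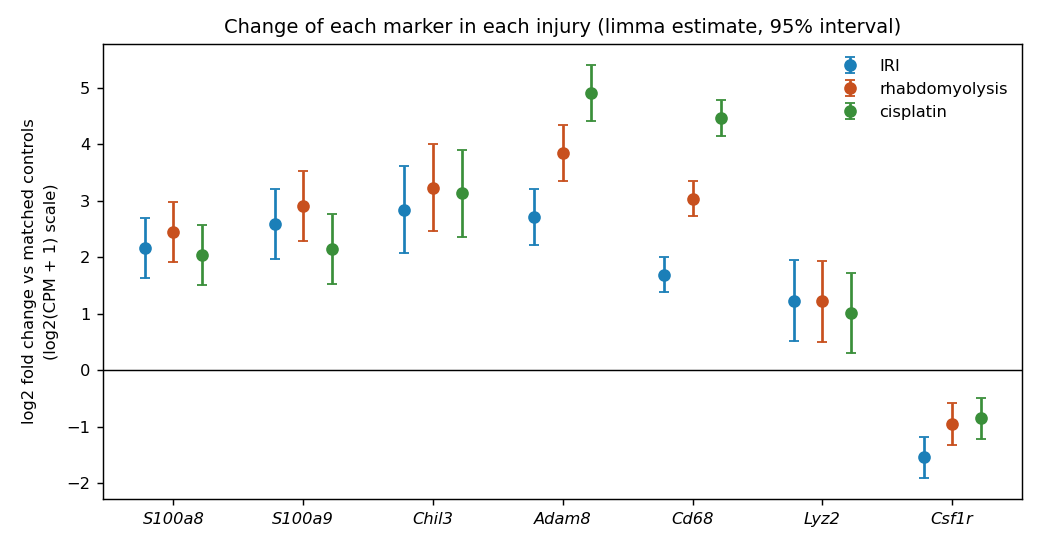
Difference from matched controls on the log2(CPM + 1) scale for each member in IRI, rhabdomyolysis and cisplatin; points are limma estimates and bars their 95% intervals. Adam8 runs from 2.72 to 4.91, Cd68 from 1.70 to 4.47 and S100a9 from 2.15 to 2.90, and Csf1r lies below 0.

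Rhabdomyolysis and cisplatin libraries come from the same identifier range and were compared directly. Cd68 was 2.72-fold higher in cisplatin (log2 difference, rhabdomyolysis minus cisplatin, -1.43, limma adjusted p = 6.19e-08) and Adam8 2.04-fold higher (-1.07, limma adjusted p = 0.000797), both without overlap. S100a9 was higher in rhabdomyolysis by 0.75 on that scale (SE 0.30, limma adjusted p = 0.0378) with overlapping groups. This call was lost with edgeR (adjusted p = 0.0577), without rhabdomyolysis mouse 1 (0.50, limma adjusted p = 0.165), without cisplatin mouse 1 (0.51, 0.164) and without cisplatin mouse 4 (0.63, 0.113). It was also lost with a pseudocount of 0.1 (limma adjusted p = 0.123). Of the members 3 of 7 passed, 1 higher and 2 lower in rhabdomyolysis, where 54.1% of genes did (21.4% higher, 32.7% lower). All 4 rhabdomyolysis mice fell below all 4 cisplatin mice for 2 members, where 29% of genes did so. The other 4 members missed the threshold, with 95% intervals of the log2 difference of -0.13 to 0.94 for S100a8, -0.68 to 0.87 for Chil3, -0.51 to 0.91 for Lyz2 and -0.47 to 0.27 for Csf1r.

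Since the IRI libraries lie in the other identifier range, IRI was set against each other injury by testing whether the changes from matched controls differed. Against rhabdomyolysis 2 of 7 members passed, where 52% of genes did. The effect on Cd68 was smaller in IRI by 1.34 (SE 0.21, limma adjusted p = 2.97e-05) and that on Adam8 by 1.13 (SE 0.34, limma adjusted p = 0.00889). The Adam8 call was lost with edgeR (-0.88, adjusted p = 0.508), DESeq2 (-0.93, 0.376) and a pseudocount of 0.1 (-0.83, limma adjusted p = 0.239). For Csf1r the difference of -0.59 missed the threshold (limma adjusted p = 0.0515). It passed with edgeR (adjusted p = 0.0286), with DESeq2 (0.00961), without rhabdomyolysis mouse 4 (-0.82, limma adjusted p = 0.00187) and without control mouse 3, 4 or 5. It also passed with 75th percentile scaling (limma adjusted p = 0.0348), quantile normalization (0.0239) and a minimum mean of 5 CPM (0.0470), so it passed in 9 of 23 alternatives.

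Against cisplatin 3 of 7 members passed, where 30.3% of genes did. The effect of IRI was smaller on Cd68 (difference -2.77, limma adjusted p = 2.82e-09) and on Adam8 (-2.19, limma adjusted p = 4.91e-05), and the fall of Csf1r was deeper (-0.69, SE 0.25, limma adjusted p = 0.0401). On the recovered reads the Adam8 difference did not pass with edgeR (-1.90, adjusted p = 0.193) or DESeq2 (-1.84, 0.0968). The Csf1r call was lost when control mouse 1, 2, 6 or 8, cisplatin mouse 1, 2 or 3, or IRI mouse 2 or 4 was left out (limma adjusted p up to 0.0821), and with 75th percentile scaling (-0.66, limma adjusted p = 0.0519). It passed in 13 of 23 alternatives. S100a8, S100a9, Chil3 and Lyz2 did not pass in either comparison of IRI. The intervals were wide: for Lyz2 the difference between the IRI and rhabdomyolysis effects lay between -0.996 and 1.02.

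Within the injured groups the mice did not vary alike for all members. Among rhabdomyolysis mice, mouse 4 was lowest for Chil3, Adam8, Cd68, Lyz2 and Csf1r, and its library was also the smallest of the group by effective size (8.81 M reads, against 10.2 to 10.6 M). The part of library size in this was not tested. Its S100a8 and S100a9 lay among those of the other mice. Among cisplatin mice, 2 and 3 were above 1 and 4 for S100a8, S100a9, Chil3 and Lyz2, with a highest-to-lowest ratio of 5.26 for Chil3 and 2.99 for Lyz2. In the same 4 mice that ratio was 1.33 for Adam8, 1.31 for Cd68 and 1.25 for Csf1r. In cisplatin, therefore, the calprotectin genes, Chil3 and Lyz2 were high and low in the same mice, while Cd68, Adam8 and Csf1r were nearly level across them. Among IRI mice, S100a8 and S100a9 were higher in mice 1 and 2, and Chil3 was higher in mice 3 and 4.

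**Figure D4:**
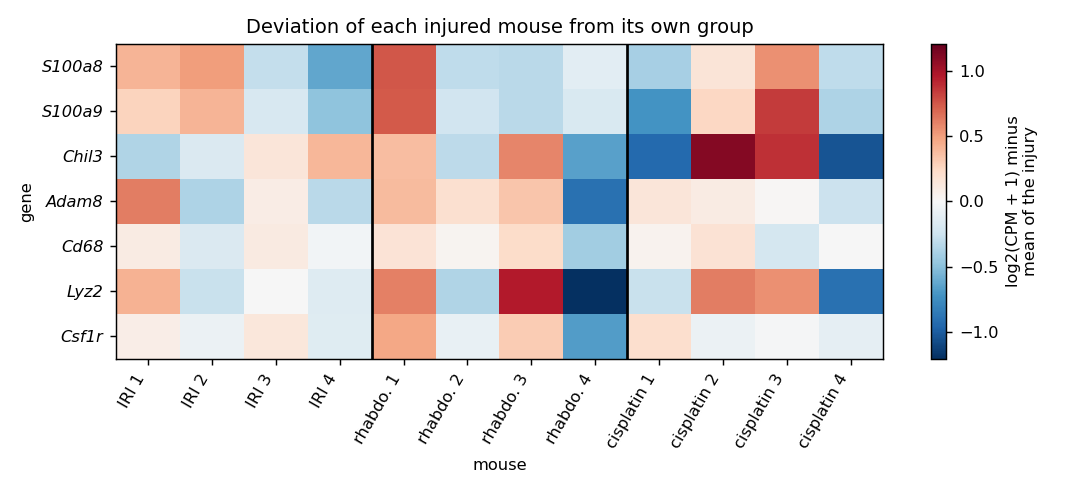
Deviation of each injured mouse from the mean of its own group on the log2(CPM + 1) scale, for each member (rows) and mouse (columns), red above and blue below the mean. Rhabdomyolysis mouse 4 is low for 5 members, and cisplatin mice 2 and 3 are high for S100a8, S100a9, Chil3 and Lyz2.

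Other myeloid genes were taken from lists written for neutrophils, monocytes, macrophages, shared leukocyte genes and myeloid growth factors. Of 21 neutrophil genes, 12 had a row and 10 were tested, of which 8 had a control mean under the 1 CPM minimum. Those 8 were tested only because of the injured libraries and could hardly come out lower, so their count supports nothing. The same holds for 3 of the 8 monocyte genes tested, 2 of the 13 further macrophage genes, 1 of the 23 shared genes and 4 of the 7 growth factors and chemoattractants in the lists that follow. The share of all genes tested that were higher, 40.6% in IRI, 48.8% in rhabdomyolysis and 47.8% in cisplatin, is the background for the counts of these lists. After IRI 8 were higher, after rhabdomyolysis 9 and after cisplatin 10, 0 were lower, and the median log2 difference was 0.89, 1.51 and 1.41. Trem1, an activating receptor of neutrophils and monocytes, had 0 reads in all 8 controls and, in the order IRI, rhabdomyolysis and cisplatin, 0.832 ± 0.254, 3.05 ± 0.892 and 3.00 ± 1.11 CPM (SD, n = 4 each). Against the value of 3 reads per control library this is at least 2.02-fold higher in IRI, 6.81-fold in rhabdomyolysis and 6.71-fold in cisplatin. Csf3r, the receptor for granulocyte colony-stimulating factor, rose from 0.538 ± 0.232 CPM (SD, n = 8) to 2.41 ± 1.00, 3.73 ± 1.07 and 4.99 ± 2.76 (SD, n = 4 each). Clec4d, a myeloid lectin receptor, was 0.037 ± 0.070 CPM in the controls (SD, n = 8) and 1.35 ± 0.594, 2.85 ± 1.54 and 1.69 ± 0.379 in the injuries (SD, n = 4 each). Where a gene at 0 in its controls was given that lower bound, the medians of the list were 0.96, 1.51 and 1.41. The bound is a log2 ratio without the added 1 CPM, so these medians mix scales. These genes were low: with a minimum mean of 5 CPM only 1 neutrophil gene was tested, and it was higher in each injury. With quantile normalization 5 neutrophil genes passed in IRI. The neutrophil genes Ly6g, Camp, Ngp, Ltf, Mpo and Elane were not analysed here.

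Of 12 monocyte genes, 8 were tested, and 6 were higher in IRI, 8 in rhabdomyolysis and 7 in cisplatin (medians 0.93, 1.59 and 1.39). With quantile normalization 4 passed in cisplatin. Cd14, the co-receptor for bacterial lipopolysaccharide, rose from 3.45 ± 1.15 CPM (SD, n = 8) to 30.3 ± 7.37, 38.3 ± 5.48 and 42.8 ± 10.8 (SD, n = 4 each). Plac8 was 12.1 ± 1.53 CPM in the controls (SD, n = 8) and 36.4 ± 7.08, 34.0 ± 14.3 and 54.2 ± 10.7 in the injuries (SD, n = 4 each). Thbs1, thrombospondin, was highest in rhabdomyolysis at 286 ± 72.0 CPM (SD, n = 4), against 36.0 ± 10.4 in the controls (SD, n = 8). Tubular and vascular cells express several of these genes too, and injured tubules express Cd14.

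Of 23 further macrophage genes, 13 were tested, and 9 were higher in IRI, 13 in rhabdomyolysis and 12 in cisplatin (medians 0.61, 1.61 and 1.57). Without IRI mouse 1 the IRI count was 5. Spp1, osteopontin, which injured tubules also make, rose from 1055 ± 113 CPM (SD, n = 8) to 24319 ± 3562, 25091 ± 3631 and 13338 ± 2674 (SD, n = 4 each). Lgals3, galectin-3, rose from 32.1 ± 7.46 CPM (SD, n = 8) to 220 ± 12.8, 421 ± 21.5 and 351 ± 49.0 (SD, n = 4 each). Gpnmb, a glycoprotein of lysosome-rich macrophages, was 0.127 ± 0.161 CPM in the controls (SD, n = 8) and 1.74 ± 0.545, 10.9 ± 3.02 and 6.80 ± 1.31 in the injuries (SD, n = 4 each). The complement genes C1qa, C1qb and C1qc, which tissue macrophages express, differed by 0.59, 0.45 and 0.25 in IRI, where C1qb and C1qc missed the threshold. In rhabdomyolysis they rose by 1.19, 1.37 and 1.08, and in cisplatin by 1.28, 1.23 and 1.04. Cx3cr1, Aif1, Timd4 and Trem2 were not analysed here.

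Of 26 shared leukocyte and myeloid signalling genes, 23 were tested. In IRI 9 were higher and 2 lower, in rhabdomyolysis 21 and 2, and in cisplatin 20 and 2 (medians 0.35, 1.02 and 0.90). Itgam, the CD11b integrin chain, rose from 1.16 ± 0.620 CPM (SD, n = 8) to 7.40 ± 1.75, 16.1 ± 6.22 and 12.99 ± 4.47 (SD, n = 4 each). Alox5ap, needed for leukotriene synthesis, and Csf2rb, a shared cytokine receptor chain, rose in all 3 injuries by 0.76 to 1.53. The genes that fell were Cyba, an oxidase subunit that is widely expressed in kidney (375 ± 65.4 CPM in the controls, SD, n = 8, against 194 ± 13.9, 117 ± 5.96 and 176 ± 39.6, SD, n = 4 each), and Sirpa, a myeloid inhibitory receptor, by 0.84, 1.16 and 0.74 on the log2 scale.

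The ligands of the falling receptor rose. Csf1, a ligand of CSF1R, went from 7.07 ± 2.47 CPM (SD, n = 8) to 31.0 ± 4.27, 82.2 ± 24.3 and 110.6 ± 27.4 after IRI, rhabdomyolysis and cisplatin (SD, n = 4 each). The limma log2 difference was 2.28, 3.12 and 3.57 (adjusted p = 1.73e-08, 3.10e-11 and 6.66e-12). Il34, the other ligand and a product of tubular epithelium, went from 15.4 ± 5.21 CPM (SD, n = 8) to 76.2 ± 5.63, 70.1 ± 8.10 and 79.8 ± 6.96 (SD, n = 4 each). Against matched controls its limma log2 difference was 2.65, 1.82 and 2.00 (adjusted p = 3.05e-12, 2.62e-10 and 9.51e-11). The IRI difference was larger by 0.84 than that of rhabdomyolysis and by 0.65 than that of cisplatin (limma adjusted p = 0.00302 and 0.0272). Its level in controls 1 to 4 minus that in controls 5 to 8 was -0.71 on the same scale (limma adjusted p = 0.180). That control difference enters both comparisons of IRI for Il34 and is close to them in size. Of 14 listed growth factors and chemoattractants, 7 were tested, and 6 were higher in IRI and 7 in each other injury (medians 1.18, 2.15 and 2.28). Cxcl1, a neutrophil chemokine, went from 0.130 ± 0.101 CPM (SD, n = 8) to 4.01 ± 1.94, 6.29 ± 0.581 and 15.2 ± 3.44 (SD, n = 4 each). With Il6, at 0 reads in the controls matched to rhabdomyolysis and cisplatin, set at its lower bound, the medians there were 2.56 and 2.28. These medians too mix the bound with differences on the log2(CPM + 1) scale. The medians over all genes tested (0.08, 0.31 and 0.30) are the reference for each list, and nothing particular to a list follows from its count in a table chosen for change.

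**Figure D5:**
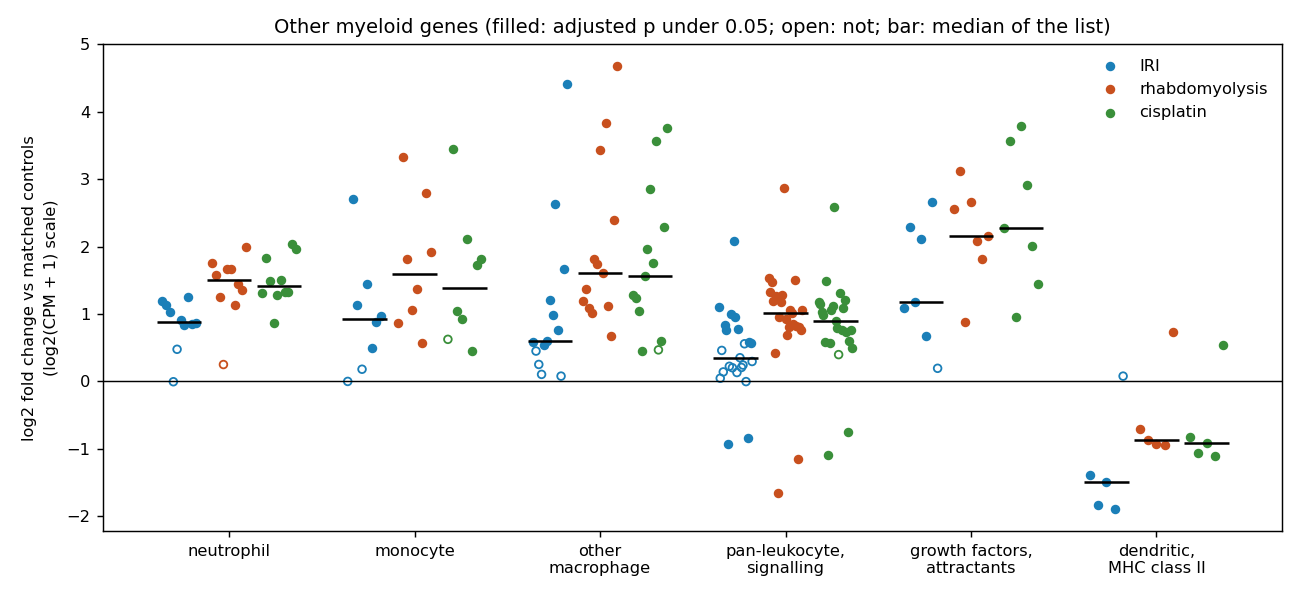
Log2(CPM + 1) difference from matched controls of each tested gene of the myeloid lists in IRI, rhabdomyolysis and cisplatin; each point is 1 gene, filled where its limma adjusted p was under 0.05, and the line marks the list's median. Growth factors and chemoattractants have medians of 1.18, 2.15 and 2.28, and 4 of 5 dendritic cell genes lie below 0.

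Of 11 dendritic cell genes, 5 were tested: 4 were lower in each injury, where 40.1%, 46.5% and 44% of genes were lower in IRI, rhabdomyolysis and cisplatin, and Zbtb46, a dendritic cell transcription factor that endothelium also expresses, was higher in rhabdomyolysis (0.74) and cisplatin (0.54) and differed by 0.08 in IRI. The 4 that fell were the MHC class II chains H2-Eb1, H2-Aa and H2-Ab1 and the invariant chain Cd74. H2-Eb1 fell from 59.4 ± 4.91 CPM (SD, n = 8) to 15.4 ± 0.924, 31.3 ± 10.4 and 26.8 ± 3.14 after IRI, rhabdomyolysis and cisplatin (SD, n = 4 each). Its limma log2 difference was -1.89, -0.95 and -1.11 (adjusted p = 1.34e-09, 1.17e-05 and 1.89e-06). Resident kidney macrophages express MHC class II as well as Csf1r. Flt3, Xcr1 and Clec9a, which define dendritic cells, were not analysed here.

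Markers of other cells changed beside the members, and their part in the results was not tested. Of 15 lymphocyte genes, 3 had a row, with a summed level of 2.39 to 5.08 CPM in the controls, 2.29 to 4.26 in IRI, 2.66 to 5.29 in rhabdomyolysis and 2.52 to 3.03 in cisplatin. Lck was higher in IRI and rhabdomyolysis, and Cd8a was lower in rhabdomyolysis and cisplatin. Each count here stands against the shares of all genes that were higher (40.6%, 48.8% and 47.8%) or lower (40.1%, 46.5% and 44%) in IRI, rhabdomyolysis and cisplatin. Of 10 proximal tubule genes, 9 were lower in IRI and 10 in the other injuries, with summed levels of 8423 to 13983 CPM in IRI, 8329 to 9893 in rhabdomyolysis and 4085 to 7286 in cisplatin. Of 4 endothelial genes tested, 3, 4 and 4 were higher, and of 2 podocyte genes, 2, 1 and 1. Of 5 erythroid genes, 2, 5 and 5 were lower, with summed levels of 653 to 2142 CPM in the controls, 644 to 964 in IRI, 224 to 310 in rhabdomyolysis and 3.57 to 16.6 in cisplatin.

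Genes with the most similar pattern over the 20 libraries were found by Pearson's r of log2(CPM + 1), given as a description only, since the libraries fall into control and injured clusters and share that difference. For S100a8 they were S100a9 (0.98), Cd24a (0.98) and Pea15a (0.97), and for S100a9 they were S100a8 (0.98), Cd24a (0.97) and Mall (0.97). For Chil3 they were Sdc1, Glipr2 and Anxa5 (each 0.96), for Adam8 they included Il1rn and Cd44 (each 0.99), and for Cd68 Homer3 and Nbl1 (each 0.99). For Lyz2 they were Lilrb4, Alox5ap and AI662270 (each 0.91). For Csf1r they were the MHC class II genes H2-Ab1 (0.97), H2-Eb1 (0.96) and H2-Aa (0.96). Several of these genes, such as Cd24a, Sdc1 and Cd44, are also expressed by epithelium.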

How the data were processed

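RNA from kidney cortex of 20 mice was prepared as stranded poly-A libraries, per the labels' protocols. The submitters' processing notes name FastQC, Bowtie2 2.1.0, RSEM 1.2.15, edgeR and the builds GRCm38 and mm10, with no role or order. The authors deposited 1 table of normalized values for 6025 genes; by their behaviour the deposited values are CPM. Within each library the values were whole multiples of 1 step (within 0.001 of a read), so reads were recovered as value divided by step, and the effective library size is the CPM scale divided by step. For cisplatin mouse 2 that step is close to 0.1 CPM. Its values were whole multiples like those of the other libraries (largest distance 4.94e-05 of a read), and any added uncertainty of its reads was not tested.

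On the log2(CPM + 1) scale, limma 3.58.1 (R 4.3.3) fitted 1 model of 20 libraries with 5 cells (the controls of each identifier range and the injuries), a mean-variance trend and Benjamini-Hochberg adjustment over 5672 genes, those whose mean reached 1 CPM (353 left out), with a threshold of 0.05. The model was run on simulated data in which only genes far above the control levels of the recruited markers were changed, in IRI alone. That run does not cover those markers or a table chosen for change. Intervals on read ratios are exact binomial, at 95%, and, like the 3-read floors, cover counting error only. edgeR 4.0.16 and DESeq2 1.42.0 on the recovered reads were alternatives, beside another pseudocount, other minimum means, 75th percentile and quantile scaling, a replicate block, each mouse left out in turn and, added after seeing the data, fits on the libraries of the compared groups only. Named were the 8 members, up to 4 genes per other list by mean difference among those past the threshold, and the 3 genes most like each member, not all of which are reported here. Other genes named for being low, absent or opposite to their list were chosen after their values were seen. The members and lists were chosen with earlier results of these data known. Exon lengths and coordinates are GENCODE's and promoters RefSeq's.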

Additional observations from a re-analysis of the deposited data

Results flagged for a closer look

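In rhabdomyolysis, mouse 1 stood far above the other 3 for S100a8 and S100a9: the gap to the next mouse was 0.869 of the group's range for S100a8 and 0.907 for S100a9. Of 28 sets of member and group examined, 2 had such a distant value, and 1.4 are expected by chance for independent sets with normal spread. Both were the same mouse, in genes whose deviations within the injured groups went together (r = 0.95), so they are not separate events.

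Some members passed a limma test of the difference between injuries. Between rhabdomyolysis and cisplatin the log2 difference was 0.75 for S100a9, which was higher in rhabdomyolysis, and -1.07 for Adam8 and -1.43 for Cd68, which were higher in cisplatin. The IRI effect minus the rhabdomyolysis effect was -1.13 for Adam8 and -1.34 for Cd68. The IRI effect minus the cisplatin effect was -2.19 for Adam8, -2.77 for Cd68 and -0.69 for Csf1r. Some of these calls depend on the setting: S100a9 passed in 10 of 17 alternatives and Csf1r in 13 of 23, and Adam8 did not pass with edgeR or DESeq2 between the IRI and rhabdomyolysis effects (adjusted p = 0.508 and 0.376) or between the IRI and cisplatin effects (0.193 and 0.0968). Cisplatin kidneys were taken at 72 h and the others at 24 h, so agent and time cannot be told apart in these differences.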

How the results depend on the processing

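Against matched controls, 7 of 7 members passed in each injury whichever mouse was left out, beside 4332 to 4526 genes of the table in IRI, 5285 to 5366 in rhabdomyolysis and 5022 to 5198 in cisplatin, and 4 of those members could pass only as higher. Of the members, 6 passed with a minimum mean of 5 CPM, under which S100a8 was not tested. Leaving out each mouse, 2 to 3 members passed between rhabdomyolysis and cisplatin, 2 to 3 between the IRI and rhabdomyolysis effects, and 2 to 3 between the IRI and cisplatin effects. Beside them, in that order, 2696 to 3019, 2697 to 3003 and 1439 to 1811 genes of the table passed. With a pseudocount of 0.1, 1 member in place of 2 passed between the IRI and rhabdomyolysis effects. Of the member values between groups under the alternatives, 716 kept their direction and side of the threshold, 22 lost the threshold, 9 gained it and 38 changed sign. With those of the controls by range, 40 changed sign, and 0 of them passed the threshold in either fit. Between rhabdomyolysis and cisplatin the sign changed for Chil3 with edgeR (-0.15) and DESeq2 (-0.034) and for Csf1r with quantile scaling (0.041) and DESeq2 (0.073). Leaving out mice, Chil3 ran from -0.25 to 0.46, Lyz2 from -0.12 to 0.60 and Csf1r from -0.25 to 0.13. Between the IRI and rhabdomyolysis effects it changed for S100a8 (0.16 with a pseudocount of 0.1, 0.33 with edgeR, 0.30 with DESeq2), S100a9 (0.10 with edgeR, 0.041 with DESeq2) and Chil3 (0.10, 0.36 and 0.37 with the pseudocount, edgeR and DESeq2). Lyz2 was -0.045 with 75th percentile scaling, -0.080 with quantile scaling, -0.19 with edgeR, -0.27 with DESeq2, and -0.39 to 0.33 leaving out mice. Between the IRI and cisplatin effects Chil3 was 0.23 with the pseudocount, 0.21 with edgeR, 0.34 with DESeq2 and -0.64 to 0.076 leaving out mice, S100a8 -0.040 to 0.33 and Lyz2 -0.087 to 0.42. Lyz2 between the controls by range ran from -0.12 to 0.038. These causes were not tested. The scaling by the 75th percentile moved the median of all genes in IRI from 0.08 to 0.18 and in rhabdomyolysis from 0.31 to 0.44, and quantile scaling moved it in rhabdomyolysis to 0.14 and in cisplatin to 0.03. Deviations of same-numbered mice had correlations of -0.11 to 0.18 for IRI and controls and -0.21 to 0.32 for rhabdomyolysis and cisplatin. The labels do not say whether a number pairs mice, and these correlations cannot settle it. With a replicate block, 7 members passed in IRI, and 2 passed between rhabdomyolysis and cisplatin. In the main fit 80.7% and 54.1% of all genes tested passed these comparisons, so nothing is read from the member counts alone. Between rhabdomyolysis and cisplatin, S100a9 had a limma adjusted p of 0.124 with the block and 0.0793 with the libraries of those groups only. With the 5 CPM minimum the counts of the other myeloid lists also fell, because fewer of their genes were tested. Control levels of the recruited markers rest on 0 to 7 reads per library, which limits their ratios.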

Other observations

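Ccr2, the chemokine receptor of blood monocytes, was chosen after its values were seen, as a gene whose variation within the injured groups was among the most like that of Lyz2. It was 14.2, 8.77, 20.0 and 3.52 CPM in rhabdomyolysis mice 1 to 4 and 8.17, 10.9, 9.38 and 5.33 CPM in cisplatin mice 1 to 4, with a control range of 3.31 to 7.80 CPM. In both injuries mouse 4 lay within the control range, and a likeness to Lyz2 there follows from the choice. In IRI Ccr2 was 3.89 to 5.38 CPM, all within the control range, while Lyz2 was above the controls in all 4 IRI mice.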
